A study of Mus musculus with 4 samples.

Results

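The genes of oxidative phosphorylation were followed in single islet cells, by respiratory complex and by the genome that encodes them. Members were taken by symbol: names that start with Ndufa, Ndufb, Ndufc, Ndufs, Ndufv, Sdh (a to d), Uqcr, Uqcc, Cox4 to Cox8 or Atp5, and the 13 protein-coding genes of mitochondrial DNA, with pseudogene symbols left out. The rule gave 109 of the 32285 genes in the files, 96 nuclear and 13 mitochondrially encoded. The nuclear members were 36 subunits of complex I, 4 of complex II, 8 of complex III, 19 of complex IV, 17 of complex V and 12 assembly factors. The mitochondrially encoded members belong to complex I (7), complex III (1), complex IV (3) and complex V (2). The choice went by symbol alone, but earlier results of these data were known when it was made.

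The cells came from pancreatic islets of male mice aged 8 weeks, in 4 libraries, 1 for each group. Cre-positive mice carried floxed alleles, Tet2(flox/flox) and Tet3(flox/flox), together with Pdx1 cre+, so Cre driven by Pdx1, active in the pancreatic lineage, could delete parts of both genes. Cre-negative mice had the same floxed alleles and were Pdx1 cre-. IHG offspring were born to mothers with intrauterine hyperglycemia, and control offspring to control mothers. No floxed allele is named for either offspring group, and no group of Cre-bearing mice without floxed alleles was included. The labels do not say how many mice stood behind a library; islets were hand-picked, cultured and dispersed with trypsin. The series asks how impaired glucose tolerance and insulin secretion arise in IHG offspring, and whether TET enzymes, which oxidise 5-methylcytosine in DNA, take part. With 1 library per group no difference has a replicate check and no test between groups was possible. Values are given with exact 95% intervals that cover counting error only.

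Oxidative phosphorylation takes electrons from NADH at complex I and from succinate at complex II, passes them through complex III and cytochrome c to oxygen at complex IV, and uses the proton gradient that complexes I, III and IV build to make ATP at complex V. Complexes I, III, IV and V are mosaics of nuclear and mitochondrial gene products, whereas complex II is wholly nuclear. In beta cells the ATP made from glucose closes ATP-sensitive potassium channels, which starts calcium entry and insulin release, so respiration is part of glucose sensing itself. Several subunits of complex IV come in paired isoforms whose use differs between tissues.

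UMIs (unique molecular identifiers, which count captured molecules at the 3' end) numbered 84146592 in the Cre-positive, 52489846 in the Cre-negative, 95818236 in the IHG offspring and 109110492 in the control offspring library. Clusters of cells were named from marker lists, with the members kept out of the genes used for clustering. Beta-like cells numbered 2668, 3223, 5915 and 10363 in that order of libraries, alpha-like cells 1408, 961, 1935 and 965, delta-like cells 850, 516, 1420 and 1116, and endothelial-like cells 1744, 202, 819 and 1150. In beta-like cells 10 of 10 beta markers reached 20 CPM (a gene's UMIs in the class, scaled to the same total in each library). There the 9 endothelial markers summed to 19.7 to 31.6 CPM, the 8 macrophage markers to 8.97 to 14.8 CPM and the 8 pericyte markers to 0.977 to 4.83 CPM, with none of them at 20 CPM. Markers of other endocrine cells were present and differed between libraries. In the Cre-positive, Cre-negative, IHG offspring and control offspring libraries, the 6 delta markers summed to 718, 3787, 522 and 407 CPM in beta-like cells, the 4 PP markers to 1004, 2165, 1279 and 313 CPM, and the 8 alpha markers to 3812, 1881, 2261 and 1970.4 CPM. The delta and PP sums were highest in the Cre-negative library. An alternative left out beta-like cells rich in other islet hormones, 178 (6.67%) in the Cre-positive and 381 (11.8%) in the Cre-negative library. Without them, no member past 1.5-fold in the Cre comparison came short of it where it still passed the floor. Beyond that, the part of these markers in the Cre comparison was not tested. The Cre-negative library stood apart from the other three. Of its beta-like cells, 2771 were in cluster 3, which held 30 Cre-positive, 550 IHG offspring and 188 control offspring cells, and 819 of its 961 alpha-like cells were in cluster 12, which held 16 Cre-positive, 36 IHG offspring and 12 control offspring cells. Library and genotype cannot be told apart here. Tet2 had 33.2 CPM in Cre-positive and 46.7 CPM in Cre-negative beta-like cells, and Tet3 had 26.3 and 34.2 CPM, but 3' tags may lie outside the deleted parts and so check nothing. Between 58 and 246 cell barcodes were shared by each pair of libraries.

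In beta-like cells the 96 nuclear members together took 1.19% of UMIs in the Cre-positive, 1.16% in the Cre-negative, 1.11% in the IHG offspring and 1.09% in the control offspring library. The 13 mitochondrially encoded members took 8.12%, 8.32%, 8.72% and 9.24% in the same order. The ratio of mitochondrial to nuclear member UMIs was 6.81, 7.17, 7.89 and 8.47. Cells with more than 20% mitochondrial UMIs were left out, 24, 51, 176 and 35 cells in that order, so the filter itself acts on these sums.

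By complex, the nuclear subunits of complex V made up 0.371%, 0.368%, 0.351% and 0.341% of beta-like UMIs in the Cre-positive, Cre-negative, IHG offspring and control offspring libraries. Those of complex I made up 0.340%, 0.328%, 0.321% and 0.321%, and those of complex IV 0.256%, 0.251%, 0.232% and 0.225%. Complex III had 0.0835% to 0.0975% and complex II 0.0502% to 0.0585% over the libraries. The order V, I, IV, III, II held in each of the 4 libraries. Among mitochondrially encoded sets the 3 complex IV genes led, with 3.93%, 3.84%, 4.05% and 4.49%, ahead of the 7 complex I genes with 2.26%, 2.40%, 2.49% and 2.53%.

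Levels of single genes are UMIs at 3' ends, so they were not divided by transcript length, and how well each 3' end was captured was not measured. The 3 most abundant members of each complex in beta-like cells were as follows, in the order Cre-positive, Cre-negative, IHG offspring and control offspring. For complex I, the membrane-arm subunits Ndufb8, Ndufb11 and Ndufa1 led. Ndufb8 had 239, 248, 226 and 234 CPM. For complex II, the membrane anchor Sdhd had 230, 246, 186 and 172 CPM, above or beside the flavoprotein Sdha with 167, 199, 168 and 178 CPM. The 2 differed in order between libraries, Sdha being the higher of them only in control offspring. The second anchor, Sdhc, had 71.2, 90.5, 98.6 and 105 CPM.

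For complex III, the hinge protein Uqcrh had 244, 229, 193 and 202 CPM, beside Uqcrb and Uqcrq, small subunits of the complex. For complex IV, the small membrane subunit Cox7c had 420, 455, 371 and 371 CPM and Cox8a had 440, 410, 380 and 330 CPM, so their order varied with the library, and Cox6c followed. For complex V, Atp5a1, the alpha subunit of the catalytic head, had 511, 509, 487 and 481 CPM, with the stalk subunit g gene Atp5l and the c-ring gene Atp5g2 close to it. Levels at the top of each complex thus spread over the libraries by less than 1.5-fold, apart from Uqcrq, described with the Cre comparison.

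The mitochondrially encoded genes spanned a far wider range. The catalytic core gene of complex IV, mt-Co1, had 16607, 18285, 17632 and 19497 CPM in the Cre-positive, Cre-negative, IHG offspring and control offspring libraries. Its partner mt-Co2 had 16562, 14678, 17377 and 18242 CPM, and mt-Co3 had 6085, 5418, 5468 and 7206 CPM. At the other end stood mt-Nd6, the only one of the 13 read from the other strand of mitochondrial DNA, with 7.08, 12.3, 6.01 and 9.76 CPM, which was under the 20 CPM floor used for comparisons. The cytochrome b gene mt-Cytb had 9432 to 11777 CPM, the complex V gene mt-Atp6 had 9528 to 10449 CPM, and the complex I genes mt-Nd4, mt-Nd1, mt-Nd2, mt-Nd3, mt-Nd5 and mt-Nd4l followed with maxima of 8893, 6824, 4418, 2848, 1852 and 751 CPM.

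The second complex V gene, mt-Atp8, had 181, 218, 137 and 208 CPM in the same libraries, although it and mt-Atp6 are known to be carried on the same messenger RNA. The overlaps of mt-Atp8 with mt-Atp6 and of mt-Nd4l with mt-Nd4 are shown because reads within them cannot be told apart by gene and because mt-Atp8 and mt-Nd4l are the genes that recur in the offspring comparison. In GENCODE vM21 on GRCm38, mt-Atp8 lies at chrM:7766-7969 and mt-Atp6 at chrM:7927-8607, both on the forward strand, and 43 bases are common to both. The gene mt-Nd4l lies at chrM:9877-10173 and mt-Nd4 at chrM:10167-11544, with 7 bases in common. Below, the shared bases are in capitals, starting at the start codon of the second gene and ending at the stop codon of the first. The stretches cover chrM:7867-8029 and chrM:10144-10196.
mt-Atp8/mt-Atp6: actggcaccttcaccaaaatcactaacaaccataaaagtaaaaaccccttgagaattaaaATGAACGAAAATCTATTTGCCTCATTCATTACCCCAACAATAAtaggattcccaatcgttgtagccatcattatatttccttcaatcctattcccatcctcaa
mt-Nd4l/mt-Nd4: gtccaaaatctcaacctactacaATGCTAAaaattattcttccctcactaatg

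Of the 5 classes compared, beta-like cells held the largest mitochondrially encoded share of UMIs. That share was 8.12% to 9.24% in beta-like cells, against 4.68% to 7.22% in alpha-like, 4.97% to 6.58% in delta-like, 4.32% to 4.83% in endothelial-like and 4.45% to 5.04% in macrophage-like cells. Proliferating cells, not among these 5, had 7.99% to 9.14%, close to beta-like cells. The ranges over the 4 libraries did not overlap between beta-like cells and any of the other four classes. The nuclear share overlapped more. It was 1.09% to 1.19% in beta-like cells, 0.936% to 1.37% in alpha-like, 1.01% to 1.12% in delta-like and 0.778% to 0.980% in endothelial-like cells. The highest alpha value came from the Cre-negative library, whose alpha-like cells also stood apart by their hormone share.

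**Figure D1:**
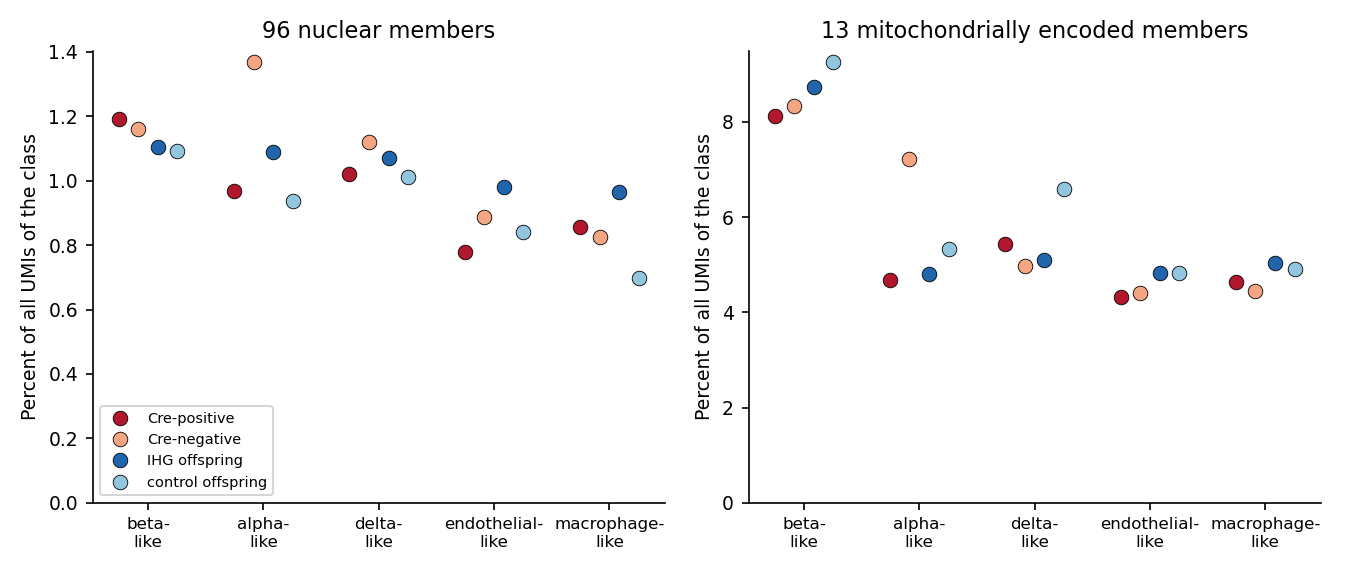
Percent of all UMIs of a class taken by the 96 nuclear members (left) and the 13 mitochondrially encoded members (right), one point per library for each of 5 classes and no error bars. Beta-like cells lie at 8.12% to 9.24% for the mitochondrial set, above the points of the other classes, while the nuclear sets overlap between endocrine classes.

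Gene by gene, a member was counted as higher in beta-like cells when its lowest library there lay above the highest library of the other class, among genes at 20 CPM or more in at least 1 library of the pair. Classes were clustered from these cells, so the counts are descriptions. Against endothelial-like cells, 38 of 81 nuclear members were higher, where 23.4% of all genes were, and 2 were lower, where 42.5% of all genes were. Of 12 mitochondrially encoded members 11 were higher, but only 2 with no doublet removal. The median log2 ratio was 0.43 for nuclear members, 0.92 for mitochondrially encoded members and -0.41 for all genes. Complex I had 18 of 33 subunits higher and complex V 9 of 17, while complex III had 1 of 8. Hormone messages fill a large part of endocrine UMIs. With hormone and mitochondrial genes left out of the total, 78 of 87 nuclear members were higher in beta-like than endothelial-like cells, where 45.1% of all genes were.

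Against alpha-like cells, 11 of 79 nuclear members were higher in beta-like cells, where 15% of all genes were, and 4 were lower (Atp5e, Ndufa6, Cox7c and Atp5g2), where 13.8% of all genes were. Against delta-like cells, 13 of 80 were higher, where 7.95% of all genes were, and 0 were lower, where 16.3% of all genes were. With the other scaling both counts were 26 of 86, against 26.0% and 14.0% of all genes. The mitochondrially encoded members were higher in 5 of 12 cases against alpha-like cells (11 with the other scaling) and in 11 of 12 against delta-like cells. The nuclear share near the background in the alpha comparison is thus no result about these members.

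The widest contrasts between the 5 classes were those of the isoforms Ndufa4l2 and Cox6a2, described below, Cox6a2 averaging 55.3 CPM in beta-like and 2.51 CPM in alpha-like cells. Other single subunits differed less. Ndufv3, an accessory subunit of the NADH-binding arm of complex I, averaged 184 CPM over the 4 libraries in beta-like cells and 55.1 CPM in endothelial-like cells. Cox5a, a structural subunit of complex IV, went the other way, with 57.8 CPM in beta-like and 112 CPM in endothelial-like cells, and 29.7 CPM in alpha-like cells. Atp5e, the epsilon subunit of the catalytic head of complex V, averaged 296 CPM in alpha-like and 103.0 CPM in endothelial-like cells, and Atp5md, a small membrane subunit of complex V, 204 and 81.2 CPM. Ndufab1, the mitochondrial acyl carrier protein that is also a complex I subunit, averaged 100.3 CPM in beta-like and 34.8 CPM in macrophage-like cells. Uqcc2, which helps to assemble complex III, averaged 84.8 and 20.4 CPM in these 2 classes. The macrophage-like means of this paragraph come from 693 Cre-positive, 59 Cre-negative, 156 IHG offspring and 49 control offspring cells. For Uqcc2 they rest on 25, 0, 16 and 4 UMIs in that order. Its 37.1 CPM in control offspring macrophage-like cells lay above the 31.8 CPM of Cre-negative beta-like cells, so these classes overlapped between libraries. The NADH-binding core subunit Ndufv1 averaged 48.4 CPM in endothelial-like and 15.4 CPM in macrophage-like cells. Among mitochondrial genes mt-Co3 differed most, with 6044 CPM in beta-like and 2403 CPM in endothelial-like cells.

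Isoform use separated classes sharply for 3 families. Cox4i1, the ubiquitous isoform of the regulatory subunit 4 of complex IV, made up at least 99.9% of its pair in beta-like, alpha-like and delta-like cells. In pericyte-like cells, Cox4i2, the isoform known from hypoxia-responsive tissue, made up 27.1% of the pair in the Cre-positive, 44.4% in the Cre-negative, 36.2% in the IHG offspring and 42.9% in the control offspring library, from 26 to 177 cells. Ndufa4l2, the hypoxia-inducible paralog of the complex IV subunit Ndufa4, made up 95.1%, 93.8%, 98.1% and 100% of its pair in pericyte-like cells. These shares rest on 41, 16, 210 and 13 UMIs, and the share was at most 0.71% in beta-like cells. Fibroblast-like cells held both isoforms too, in the Cre-positive, Cre-negative and IHG offspring libraries. There Ndufa4l2 made up 52.2%, 66.7% and 53.3% of its pair, from 23, 9 and 30 UMIs, and Cox4i2 made up 8.89%, 17.4% and 15.2%.

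In endothelial-like cells the share of Ndufa4l2 was 17.8% in the Cre-positive, 2.86% in the Cre-negative, 9.51% in the IHG offspring and 49.8% in the control offspring library. The pericyte marker Rgs5 moved with it, at 1000.2, 100.4, 812 and 6728 CPM in that order, and 7 of 8 pericyte markers reached 20 CPM in this class, with sums of 139 to 8399 CPM. In cluster 14, an Rgs5-led cluster named endothelial-like, Ndufa4l2 had 109 CPM in Cre-positive and 126 CPM in control offspring cells, against 1.1 and 8.9 CPM in cluster 6, the larger endothelial-like cluster. The part of pericyte RNA or pericyte doublets in these endothelial values was not tested.

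The muscle-type isoform Cox6a2 of subunit 6A was the member whose isoform share varied most among endocrine classes. It made up 9.07% of the Cox6a1 and Cox6a2 pair in Cre-positive, 4.50% in Cre-negative, 24.5% in IHG offspring and 35.3% in control offspring beta-like cells. In alpha-like cells the share was 0.51%, 0.05%, 0.80% and 4.06%, and in delta-like cells 1.54%, 0.13%, 3.41% and 16.3%. The order of the 4 libraries was the same in the 3 classes. Insulin genes took 6.22%, 0.539%, 3.14% and 12.9% of UMIs in delta-like cells, lowest in the Cre-negative and highest in the control offspring library as for Cox6a2, but with the other two in the opposite order. Per 1000 insulin UMIs, Cox6a2 had 0.059, 0.060, 0.218 and 0.265 UMIs in delta-like cells and 0.110, 0.054, 0.239 and 0.359 UMIs in beta-like cells. In alpha-like cells 11, 1, 22 and 32 UMIs gave 0.128, 0.058, 0.602 and 0.398 UMIs per 1000 insulin UMIs, which in 3 libraries was over the delta-like value. The part of free RNA from beta cells in the alpha-like and delta-like levels was not tested. The gene is among the 10 leading genes by fold of beta-like clusters 0 and 1.

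The other families showed a dominant isoform. Cox8a made up at least 99.8% of its family in every class described, with Cox8b and Cox8c at or near 0. Cox6b1 and Cox7b made up at least 98.3% of their pairs in beta-like, alpha-like and delta-like cells, and the testis-type partners Cox6b2 and Cox7b2 stayed under 20 CPM in beta-like cells. In the Cox7a family of beta-like cells, Cox7a2l, a supercomplex assembly factor rather than a plain isoform, made up 73.0% to 74.9%, Cox7a2 24.6% to 26.5%, and the muscle form Cox7a1 0.34% to 0.52%. The 3 genes for the same c-ring protein of complex V were used in stable proportions in beta-like cells, Atp5g2 at 44.3% to 46.7%, Atp5g3 at 37.4% to 39.5% and Atp5g1 at 15.8% to 16.5%. Macrophage-like cells leaned to Atp5g2, with 57.1% to 59.7%, and pericyte-like cells to Atp5g3, with 46.9% to 52.4%.

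**Figure D2:**
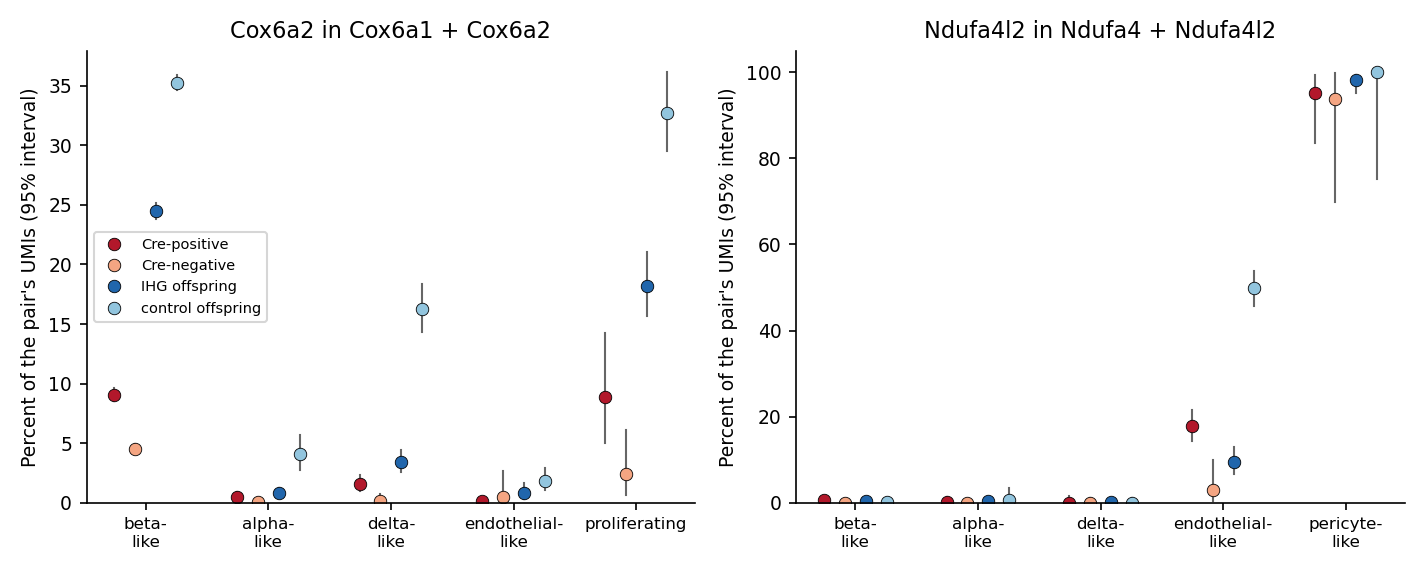
Percent of the UMIs of an isoform pair, by class and library, with exact binomial 95% intervals, for Cox6a2 in the Cox6a1 and Cox6a2 pair (left) and Ndufa4l2 in the Ndufa4 and Ndufa4l2 pair (right). Cox6a2 reaches 35.3% in control offspring beta-like cells and 4.50% in Cre-negative ones, and Ndufa4l2 is 93.8% or more in pericyte-like cells and 49.8% in control offspring endothelial-like cells.

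Between Cre-positive and Cre-negative beta-like cells, 7 of 80 nuclear members that passed the floor were higher by 1.5-fold or more, where 6.93% of all genes were, and 1 was lower, where 19.8% of all genes were. None of the 12 mitochondrially encoded members that passed the floor was past 1.5-fold. Of the 7, Cox6a2 and Ndufa11 were under 20 CPM in Cre-negative cells. They passed the floor only through the library where they were high, so the floor itself acts on the count. The share higher, 8.75%, lay near the background, which is under the same floor. The median log2 ratio was 0.01 for nuclear members and -0.11 for mitochondrially encoded members, beside -0.22 for all genes. Relative to that shift, with median-of-ratios scaling, the medians were 0.23 and 0.11, and 10 nuclear members were higher and 1 lower. Between libraries, counts past 1.5-fold under other scalings, here and below, stand without the share of all genes under the same scaling. They are not read against a background. As sums, nuclear members had a ratio of 1.03 (95% interval 1.02 to 1.03) and mitochondrially encoded members 0.975 (0.974 to 0.977), which turned to 1.02 and 1.13 with the scalings without hormone and mitochondrial genes and by median of ratios.

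Uqcc2, needed for cytochrome b and so for complex III, differed most. It had 105 CPM in Cre-positive and 31.8 CPM in Cre-negative beta-like cells, a ratio of 3.30 (3.08 to 3.53). Next came Cox6a2, with 27.2 CPM in Cre-positive and 11.6 CPM in Cre-negative cells (2.35-fold, 2.09 to 2.66), and 3 complex I subunits. The accessory membrane-arm subunit Ndufa11 had 22.8 CPM in Cre-positive and 9.98 CPM in Cre-negative cells (2.28-fold), Ndufv1 46.1 and 23.3 CPM (1.98-fold), and the accessory subunit Ndufa13, also known as GRIM-19, 71.7 and 36.7 CPM (1.95-fold). Uqcrq had 192 CPM in Cre-positive and 114 CPM in Cre-negative cells (1.69-fold, 1.62 to 1.76). Atp5d, the delta subunit of the complex V central stalk, had 50.7 and 33.4 CPM (1.52-fold, 1.41 to 1.64). The 7 genes are spread over 4 complexes and an assembly factor, with no complex holding more than 3.

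The member that was lower was Ndufa4, with 47.8 CPM in Cre-positive and 125 CPM in Cre-negative beta-like cells, 2.61-fold lower (2.46 to 2.77). Just inside the rule were Atp5d (log2 ratio 0.60) and Uqcrq (0.75). Just outside were Uqcr11, a small complex III subunit (0.48), and Cox5a (0.47) among higher genes, and Ndufs1, the largest core subunit of complex I (-0.50), and Ndufs4, an accessory subunit of its NADH-binding arm (-0.37), among lower ones. The mitochondrially encoded genes ran from -0.27 for mt-Nd5 to 0.17 for mt-Co2 and mt-Co3.

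**Figure D3:**
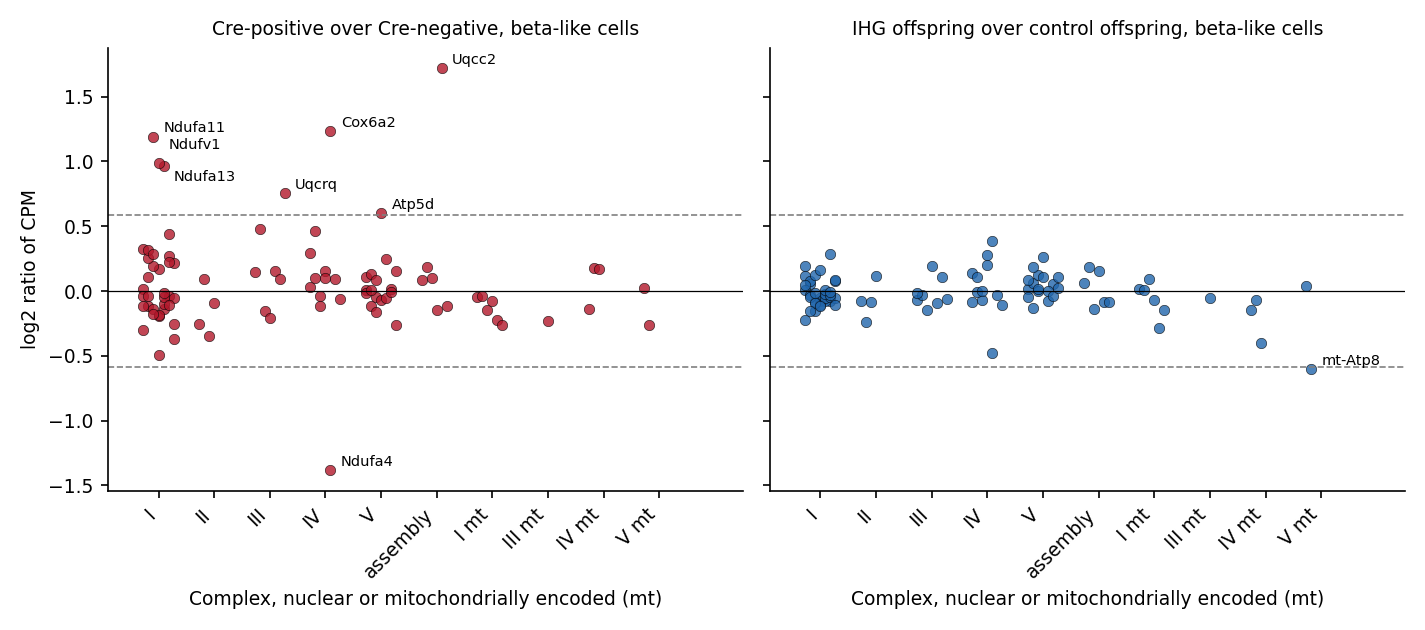
Log2 ratio of CPM for members past the 20 CPM floor in beta-like cells, Cre-positive over Cre-negative (left) and IHG offspring over control offspring (right), grouped by complex and genome. Dashed lines mark 1.5-fold, which 7 nuclear members pass upward and Ndufa4 passes downward on the left, while on the right mt-Atp8 alone passes it.

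The Cre-negative library was the low one for each of the 7 genes and the high one for Ndufa4. Uqcc2 had 98.2 CPM in IHG offspring and 104 CPM in control offspring beta-like cells, close to the 105 CPM of Cre-positive cells, and the Cre-negative library was alone at 31.8 CPM. Ndufa11 had 21.5 CPM in IHG offspring and 23.9 CPM in control offspring, Ndufa13 57.9 and 59.2 CPM, Ndufv1 37.5 and 33.5 CPM, Uqcrq 153 and 154 CPM, and Atp5d 52.7 and 44.0 CPM. For these 6 genes the other three libraries thus lay above the Cre-negative one.

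**Figure D4:**
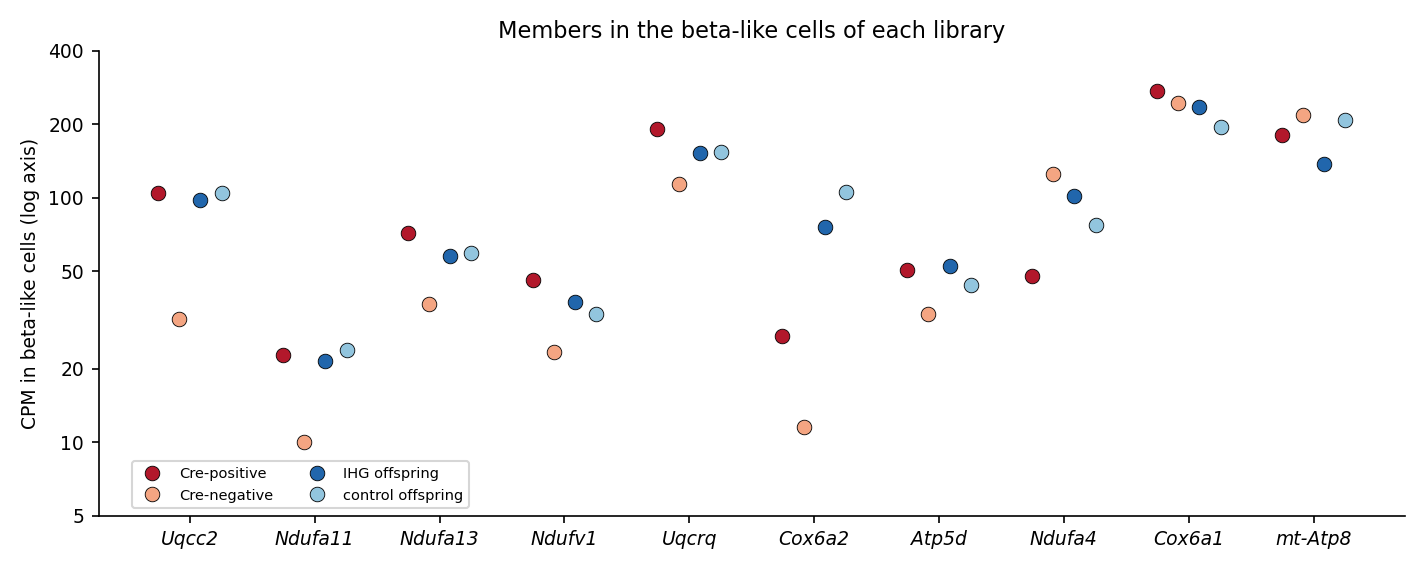
CPM in beta-like cells (log axis) of the 8 nuclear members past 1.5-fold in the Cre comparison, with Cox6a1 and mt-Atp8, in each of the 4 libraries, without error bars. The Cre-negative point is the lowest for Uqcc2, at 31.8 CPM against 98.2 to 105 CPM in the other libraries, and the highest for Ndufa4, at 125 CPM.

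A pair of libraries without Cre and without maternal hyperglycemia was set beside these values. Control offspring over Cre-negative beta-like cells shares the Cre-negative library with the Cre comparison, so the values are set side by side and not counted as agreement. In it 4 of 80 nuclear members were higher, where 3.69% of all genes were, and 1 was lower, where 19.5% of all genes were. Of the higher members, Cox6a2 and Ndufa11 again passed the floor only through the library where they were high. The log2 ratios were 3.19 for Cox6a2, 1.72 for Uqcc2, 1.26 for Ndufa11, 0.69 for Ndufa13 and -0.68 for Ndufa4, where the Cre comparison had 1.23, 1.72, 1.19, 0.96 and -1.38. With either other scaling 8 nuclear members were higher and 0 lower. Just outside 1.5-fold in this pair were Ndufv1 (0.53) and Uqcr11 (0.52), and on the lower side Ndufa9, an accessory complex I subunit, and Sdhd (both -0.51).

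Promoters are shown for the genes with the largest differences and for Cox6a1, the ubiquitous partner of Cox6a2, because nuclear respiratory genes are known for sites of the factors NRF1 and GABP, an ETS-family factor, near their starts. Exact letters were searched on both strands of 300-base windows from RefSeq on GRCm38.p6, found for 78 of 96 nuclear members. The NRF1 letters, the 10 bases in capitals in the Ndufa11 window, were in 7 of the 78 windows (8.97%), where 1.07% of 27025 genes had them. The ETS letters CCGGAAG were in 19 (24.4%), where 9.93% of genes had them, and the YY1 letters AAGATGG in 12 (15.4%), where 7.28% had them. Of Uqcc2, Ndufa11, Ndufa13, Ndufv1 and Atp5d, higher in Cre-positive cells, Ndufa11 held the NRF1 letters, none held the ETS letters, and Uqcc2 held the YY1 letters, within the 50 bases after its start. The 250 bases before each start are given 5' to 3', with NRF1 and ETS letters in capitals, for Ndufa11 (chr17:56717512-56717761, forward), Uqcc2 (chr17:27133892-27134141, reverse), Ndufa4 (chr6:11907451-11907700, reverse) and Cox6a1 (chr5:115348959-115349208, reverse). The letters are a description and not evidence of binding.
Ndufa11: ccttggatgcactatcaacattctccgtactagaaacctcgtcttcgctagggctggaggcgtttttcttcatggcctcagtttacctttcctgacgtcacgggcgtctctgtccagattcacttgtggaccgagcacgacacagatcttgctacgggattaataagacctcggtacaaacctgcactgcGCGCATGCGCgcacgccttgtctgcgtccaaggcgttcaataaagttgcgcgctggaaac
Uqcc2: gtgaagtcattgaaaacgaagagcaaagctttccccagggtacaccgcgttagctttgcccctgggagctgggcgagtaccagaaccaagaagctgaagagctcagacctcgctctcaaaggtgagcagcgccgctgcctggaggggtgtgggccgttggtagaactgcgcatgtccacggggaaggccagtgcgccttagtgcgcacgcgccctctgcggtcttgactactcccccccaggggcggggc
Ndufa4: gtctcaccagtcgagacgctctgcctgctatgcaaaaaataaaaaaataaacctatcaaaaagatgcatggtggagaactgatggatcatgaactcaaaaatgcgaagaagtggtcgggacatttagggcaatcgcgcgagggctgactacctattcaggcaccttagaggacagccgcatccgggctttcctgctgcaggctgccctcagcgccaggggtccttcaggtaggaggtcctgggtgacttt
Cox6a1: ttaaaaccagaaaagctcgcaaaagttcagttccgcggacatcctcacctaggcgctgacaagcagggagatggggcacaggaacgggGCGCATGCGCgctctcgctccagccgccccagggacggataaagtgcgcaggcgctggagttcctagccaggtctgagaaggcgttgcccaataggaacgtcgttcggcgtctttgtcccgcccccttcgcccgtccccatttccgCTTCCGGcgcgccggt

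Ndufa4, once assigned to complex I and now placed in complex IV, was lower in Cre-positive than Cre-negative cells in each class compared. It had 38.4 CPM in Cre-positive and 99.7 CPM in Cre-negative alpha-like cells, 39.2 and 120 CPM in delta-like cells, 84.2 and 124 CPM in endothelial-like cells, and 41.1 and 77.1 CPM in macrophage-like cells. In IHG offspring it was higher than in control offspring in each class compared, with 102 and 77.8 CPM in beta-like, 70.3 and 36.4 CPM in alpha-like, 108 and 50.6 CPM in delta-like and 140 and 87.6 CPM in endothelial-like cells. The cells of the 2 offspring libraries lay largely in different clusters, with 1049 IHG offspring and 25 control offspring cells in alpha-like cluster 11, and 924 and 69 cells in delta-like cluster 9. Within shared clusters the difference varied from cluster to cluster. Ndufa4 had 35.7 CPM in IHG offspring and 35.5 CPM in control offspring cells of alpha-like cluster 5, 47.0 and 50.2 CPM in delta-like cluster 7, 60.2 and 62.2 CPM in beta-like cluster 2, 83.6 and 82.6 CPM in cluster 1, and 62.8 and 79.7 CPM in cluster 0. It was higher in IHG offspring in beta-like clusters 3 and 4, with 125 and 52.9 CPM and with 137 and 94.6 CPM. The same held in delta-like cluster 9, with 140 and 63.5 CPM, the control offspring value resting on 14 UMIs. IHG offspring cells numbered 1635, 647, 620, 550 and 2458 in beta-like clusters 0, 1, 2, 3 and 4. Endothelial-like and macrophage-like cells are not of the lineage in which Pdx1 drives Cre. The Cre-negative macrophage-like value of Ndufa4 rests on 15 UMIs. The part of Cre in the Ndufa4 values of any class was not tested and cannot be told apart from the library.

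Genes of the early and heat shock response moved opposite to Ndufa4 in most of these comparisons. The summed level of 12 immediate early and heat shock genes, chosen after values had been seen, was 19080 CPM in Cre-positive, 9867 CPM in Cre-negative, 9944 CPM in IHG offspring and 13366 CPM in control offspring beta-like cells, the reverse of the order of Ndufa4 in each comparison. Within the IHG offspring library, Ndufa4 had 137 CPM in beta-like cluster 4 and 62.8 CPM in cluster 0, where that sum was 1536 and 17629 CPM. It had 97.4 CPM in alpha-like cluster 11 and 35.7 CPM in cluster 5, with sums of 5867 and 26945 CPM, and 140 CPM in delta-like cluster 9 and 47.0 CPM in cluster 7, with 7178 and 48031 CPM. Ndufa4 was among few members to differ so between these clusters of the same library: 1 of 93, 2 of 90 and 3 of 92 members past the floor were higher by 1.5-fold, and 0 lower, where 1.92%, 0.472% and 1.55% of all genes were higher and 4.75%, 10.0% and 8.7% lower. Within cluster 0 alone, Ndufa4 had 45.9 CPM in Cre-positive and 113 CPM in Cre-negative cells, with sums of 14936 and 7689 CPM. Not every class or cluster followed this. In macrophage-like cells both Ndufa4 and the sum were lower in the Cre-positive library, with sums of 30522 CPM in Cre-positive and 36570 CPM in Cre-negative cells. In alpha-like cluster 11 Ndufa4 was 93.9 CPM in Cre-positive and 73.1 CPM in Cre-negative cells, with sums of 9198 and 7094 CPM. These Ndufa4 values rest on only 21 and 27 UMIs. In beta-like cluster 3 Ndufa4 was 125 CPM in Cre-negative cells with a sum of 10295 CPM. The part of this response in the Ndufa4 differences was not tested.

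**Figure D5:**
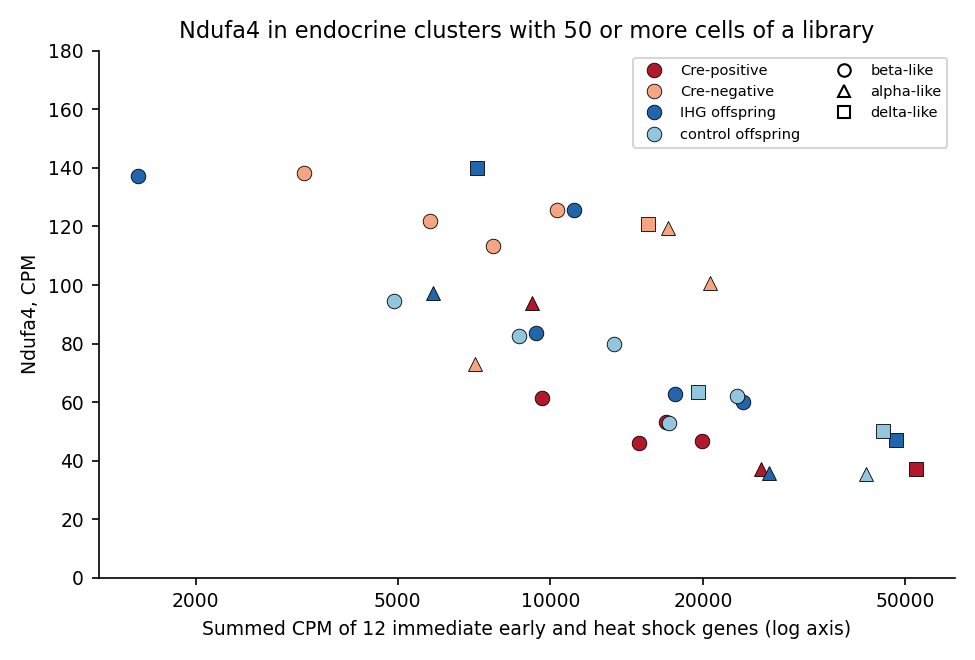
CPM of Ndufa4 against the summed CPM of 12 immediate early and heat shock genes (log axis), one point for each beta-like, alpha-like or delta-like cluster with 50 or more cells of a library, colored by library. Points of the same library share a preparation, and within the IHG offspring library Ndufa4 is 137 CPM in beta-like cluster 4, where the sum is 1536 CPM, and 62.8 CPM in cluster 0, where it is 17629 CPM.

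Between IHG offspring and control offspring, beta-like cells were close in the nuclear members. None of 81 was past 1.5-fold in either direction, where 0.58% of all genes were higher and 0.706% lower. The median log2 ratio was -0.01 for nuclear members, -0.07 for mitochondrially encoded members and -0.05 for all genes. As a sum, nuclear members took 1.11% of UMIs in IHG offspring and 1.09% in control offspring, a ratio of 1.01 (1.01 to 1.02). The nearest nuclear members were Cox6a2, with 76.3 CPM in IHG offspring and 106 CPM in control offspring (log2 ratio -0.47), followed by the complex II iron-sulfur subunit Sdhb (-0.24), and on the higher side Ndufa4 (0.39) and Ndufab1 (0.29). Cox6a2 varied by cluster within a library. It had 95.8 CPM in cluster 0 and 5.47 CPM in cluster 3 of IHG offspring, and 106 and 41.0 CPM in those clusters of control offspring, and within cluster 0 its log2 ratio was -0.15.

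The mitochondrially encoded members were lower as a sum, with 8.72% of UMIs in IHG offspring and 9.24% in control offspring, a ratio of 0.944 (0.943 to 0.945), and 0.984 and 0.980 with the other scalings. The lowest ratio was that of mt-Atp8, with 137 CPM in IHG offspring and 208 CPM in control offspring, 1.52-fold lower (1.48 to 1.56). It was just past the rule, and its log2 ratio of -0.60 became -0.54 without hormone and mitochondrial genes in the total, -0.55 with median-of-ratios scaling and -0.58 without the limit on mitochondrial UMIs, all short of 1.5-fold. Next were mt-Co3 with 5468 and 7206 CPM (-0.40) and mt-Nd4l with 618 and 751 CPM (-0.28). The partner mt-Atp6 of the shared messenger was level, with 10449 and 10193 CPM (0.04), as was mt-Nd4 with 8461 and 8893 CPM (-0.07).

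The same mitochondrial genes were low in the other classes of IHG offspring. The log2 ratio of mt-Atp8 was -0.66 in alpha-like, -0.82 in delta-like and -0.73 in endothelial-like cells, and that of mt-Nd4l was -0.77, -0.71 and -0.64. In delta-like cells mt-Atp8 had 82.4 CPM in IHG offspring and 146 CPM in control offspring (1.77-fold lower, 1.60 to 1.96), and mt-Co3 had 2924 and 4931 CPM (1.69-fold lower). All 12 mitochondrially encoded members past the floor were below 0 there, where 3253 of 6343 of all genes were. Their sum had a ratio of 0.775 (0.772 to 0.779), or 0.823 and 0.781 with the other scalings. The delta-like cells of the 2 libraries also differed in marker content. Beta markers summed to 47493 CPM in IHG offspring and 160007 CPM in control offspring, and delta markers to 241503 and 101830 CPM. The part of beta-cell RNA in the delta-like mitochondrial difference was not tested. The IHG offspring library also had the lowest mt-Atp8 level of the 4 libraries in each of these classes, with 74.9 CPM in alpha-like and 83.9 CPM in endothelial-like cells. Classes of a library share its preparation, so they are not separate evidence.

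In alpha-like and endothelial-like cells, more nuclear members had a ratio above 1 than below it in IHG offspring over control offspring. The alpha-like and delta-like cells of these libraries lay largely in different clusters, as given for Ndufa4. In alpha-like cells 73 of 78 had a ratio above 1, where 2232 of 5829 of all genes had. The median log2 ratio was 0.22 beside -0.09 for all genes. Of the 78 members, 2 passed 1.5-fold, Ndufa4 (0.95) and Ndufab1 (0.70), where 1.36% of all genes were higher and 7.1% lower. In delta-like cells the median was 0.06 beside -0.01 for all genes, with 55 of 81 above 0, where 3090 of 6343 of all genes were. There 2 of 81 were higher, Ndufa4 (1.10) and the complex III core gene Uqcrc1 (0.61), and Cox6a2 was lower (-2.32), where 4.02% of all genes were higher and 5.77% lower. The insulin share of delta-like UMIs was 3.14% in IHG offspring and 12.9% in control offspring. In endothelial-like cells 69 of 80 were above 0, where 3848 of 6876 of all genes were. The median was 0.22 beside 0.07 for all genes. By 1.5-fold, 10 of 80 were higher, where 10.4% of all genes were, and 2 were lower, where 10.9% were. The 2 lower genes were Ndufa4l2, with 14.7 CPM in IHG offspring and 87.0 CPM in control offspring, and Cox4i2, with 7.55 and 29.8 CPM, beside the Rgs5 values above. Names here were picked after the values were seen.

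The other classes of the Cre comparison are given next, and in alpha-like cells the counts changed with the scaling. In alpha-like cells 0 of 78 nuclear members were higher and 31 lower, where 4.65% of all genes were higher and 38.6% lower, and 9 of 12 mitochondrially encoded members were lower. The mitochondrial median log2 ratio of -0.76 became -0.43 without hormone and mitochondrial genes in the total and -0.29 with median-of-ratios scaling, both short of 1.5-fold. With the total taken without hormone and mitochondrial genes the nuclear counts were 3 higher and 5 lower, and with median-of-ratios scaling 6 and 1. Alpha-like cells of the Cre-positive and Cre-negative libraries lay mostly in different clusters, 5 and 12. In delta-like cells 3 of 80 were higher and 3 lower, where 9.0% of all genes were higher and 16.0% lower. The higher ones were Uqcc2 (log2 ratio 1.06), Uqcr11 (0.59) and Atp5d (0.59), and the lower ones Ndufa4 (-1.61), the complex I assembly factor Ndufaf8 (-0.83) and Sdhc (-0.74).

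In endothelial-like cells 1 of 76 nuclear members was higher, Atp5d (0.83), and 15 were lower, where 14.8% of all genes were higher and 30.8% lower, and median-of-ratios scaling gave 7 and 6. In macrophage-like cells 10 of 75 were higher and 10 lower, where 18.2% of all genes were higher and 33.8% lower, and median-of-ratios scaling gave 20 and 4. The Cre-negative library held 202 endothelial-like and 59 macrophage-like cells, with 547845 and 194476 UMIs, so counting error was large: the 6 UMIs of Atp5d in Cre-negative macrophage-like cells against 120 in Cre-positive ones gave a ratio of 2.05 (0.92 to 5.70). Scaled to all UMIs, each of these shares lay near or under its background, which does not cover the median-of-ratios counts.

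A list of mitochondrial stress genes gave a different picture in the Cre comparison. The list is not confined to mitochondrial proteins. It also holds genes of the general stress response and of amino acid synthesis, among them Atf4, Ddit3, Trib3, Chac1, Asns and Phgdh. Of 15 genes of the list past the floor in beta-like cells, 13 were higher in Cre-positive cells and 0 lower. Of all genes, 6.93% were higher and 19.8% lower. The median log2 ratio of the 15 was 1.35, beside -0.22 for all genes. Trib3, Phgdh, Chac1, Ddit3, Shmt2 and Clpp were under 20 CPM in Cre-negative cells. They passed the floor only through the library where they were high, so the floor itself acts on the count and the median. The farthest were Trib3, with 29.0 CPM in Cre-positive and 1.15 CPM in Cre-negative cells, Chac1 with 73.2 and 6.22 CPM, and Phgdh with 29.0 and 3.14 CPM. The transcription factor Atf5 had 396 CPM in Cre-positive and 56.3 CPM in Cre-negative cells, the mitochondrial folate enzymes Mthfd2 125 and 26.1 CPM and Shmt2 44.9 and 13.9 CPM, and the matrix protease subunit Clpp 43.7 and 17.1 CPM. The matrix chaperones Hspd1 and Hspe1 had 312 and 358 CPM in Cre-positive cells, against 130 and 163 CPM in Cre-negative cells. In control offspring over Cre-negative cells, 10 genes of the list passed the floor, so the set differs from the 15 above. Of the 10, 3 were higher, Atf5 (1.67), Clpp (0.83) and Hspd1 (0.62), where 3.69% of all genes were.

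The other lists had few genes past 1.5-fold, and their counts stand beside the same 6.93% of all genes higher and 19.8% lower. Of 56 mitochondrial ribosomal protein genes 2 were higher in Cre-positive beta-like cells, Mrps18a (1.45) and Mrps18b (0.63), and 0 were lower. Of 14 carriers and partners of the chain, Gpd2, the mitochondrial glycerol 3-phosphate dehydrogenase of the glycerol phosphate shuttle, was lower, with 64.0 CPM in Cre-positive and 124 CPM in Cre-negative cells (-0.96), and 0 were higher. Of 23 assembly factors outside the symbol rule, Tmem126a of complex I was higher (0.60) and Cox15, an enzyme of heme A synthesis, lower (-0.76). Of 10 regulators of mitochondrial gene expression, the tRNA processing subunit Trmt10c was higher (0.60) and the mitochondrial DNA polymerase Polg lower (-0.63). In IHG offspring over control offspring, 0 members of these 5 lists passed 1.5-fold, of 10 stress, 49 ribosomal, 14 carrier, 18 assembly and 6 regulator genes past the floor, where 0.58% of all genes were higher and 0.706% lower.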

How the data were processed

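Single-cell RNA libraries were made with the SeekOne MM 3' kit, per the labels' protocols, from islets picked by hand, cultured and dissociated with trypsin. The deposited matrices hold raw counts of UMIs per gene and barcode, whole numbers that were not normalized. Per the submitters' processing notes, Cell Ranger, Seurat and the build mm10 were used. No label states counting options or an annotation version, so reads from overlapping genes, antisense genes and near-identical copies of mitochondrial or nuclear members may be shared.

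Barcodes needed 500 detected genes and a mitochondrially encoded share no higher than 20%. Doublets were marked per library with Scrublet in scanpy 1.11.5, which took out 1.71% of cells in the Cre-positive library and 4.54% in that of IHG offspring. Its threshold marked under 0.5% of cells in the Cre-negative and control offspring libraries, where the top 6% of scores were removed instead, ties included (6.26% and 6.53%). This left 9423 Cre-positive, 5557 Cre-negative, 11396 IHG offspring and 14723 control offspring cells. Counts scaled to 10000 UMIs per cell, 2000 variable genes without the members, 30 principal components and 15 neighbours gave Leiden clusters at resolution 1 (Python 3.11.15, scipy 1.17.1, leidenalg 0.10.2). A cluster took the name of the marker list with the highest mean log2 fold over the median cluster, if that was at least 1, led the next list by 1 and had 3 markers at 20 CPM. Other clusters stayed unnamed.

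UMIs were summed by class and library. Ratios carry exact conditional binomial 95% intervals. A count of 0 was set to 3 UMIs. A gene counted as past the rule at 1.5-fold if either compared library reached 20 CPM. The ratio script was tested on simulated data. Gene positions are from GENCODE vM21. Alternatives were other totals, floors, folds, filters, depths and clusterings. Members, gene lists and thresholds were chosen with earlier results of these data known. Named members are those past or next to 1.5-fold in beta-like cells, the 3 most abundant of each complex, the isoform families, the largest contrasts between classes and all mitochondrially encoded genes.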

Additional observations from a re-analysis of the deposited data

How the results depend on the processing

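Of the summary counts recomputed under other settings, 172 stayed within 1.5 times the reported count and 47 moved. For nuclear members past 1.5-fold in either direction in the Cre comparison, the 31 in alpha-like cells became 8 without hormone and mitochondrial genes in the total, 7 with median-of-ratios scaling, 18 at a floor of 100 CPM, 3 at 2-fold and 19 in 1 shared cluster. The 6 in delta-like cells became 12 with no floor, 1 at 100 CPM, 14 in cells thinned to 2000 UMIs, 2 at 2-fold and 25 in 1 shared cluster. The shared clusters held few Cre-negative cells, 51 in alpha-like cluster 5 and 35 in delta-like cluster 7, so counting error was large there. For this setting alone, fewer than 50 cells of a library were allowed. The 16 in endothelial-like cells became 26 with no floor, 5 at 100 CPM, 26 in thinned cells and 3 at 2-fold, and the 20 in macrophage-like cells 5 at 100 CPM and 8 at 2-fold. For IHG offspring over control offspring, the 2 in alpha-like cells became 8 without hormone and mitochondrial genes in the total, 4 with median-of-ratios scaling, with no floor and with no doublet removal, 1 at 100 CPM and in 1 shared cluster, 5 in thinned cells and in cells with 5000 to 15000 UMIs, and 0 at 2-fold. The 3 in delta-like cells became 6 with no floor, and 1 at 100 CPM and in 1 shared cluster. The 12 in endothelial-like cells became 5 at 100 CPM, 19 in cells with 5000 to 15000 UMIs and 2 at 2-fold.

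In beta-like cells, the 7 higher members of the Cre comparison became 2 at 100 CPM and 3 at 2-fold, and the 1 lower member became 4 with no floor and 2 in thinned cells. With no floor 1 nuclear member was higher in IHG offspring. Mitochondrially encoded members past 1.5-fold became 1 instead of 0 with no floor in the Cre comparison. In IHG offspring the 1 became 0 without hormone and mitochondrial genes in the total, with median-of-ratios scaling, with no mitochondrial limit and at 2-fold, and 2 with no floor. Between classes, without hormone and mitochondrial genes in the total, nuclear members higher in beta-like cells were 78 instead of 38 against endothelial-like, 26 instead of 11 against alpha-like and 26 instead of 13 against delta-like cells, and mitochondrially encoded members 11 instead of 5 against alpha-like cells. With no doublet removal the 11 mitochondrially encoded members higher than in endothelial-like cells became 2. Beyond what each setting changes by construction, the cause was not tested.

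Over the alternatives the log2 ratio of Uqcc2 in the Cre comparison ran from 1.58 to 1.94, that of Ndufa4 from -1.42 to -1.17, and that of Cox6a2 from 0.74 to 1.53. Uqcrq came to 0.47 within 1 shared cluster and Atp5d to 0.56 without doublet removal, both short of 1.5-fold. No paired analysis was possible because each group had 1 library, and for the same reason no replicate could be left out. The limits on every comparison are that 1 library stands for a group, that UMIs count 3' ends, and that members under 20 CPM, such as mt-Nd6 and most complex I assembly factors, could not be compared at this depth. The comparison within 1 shared cluster was added after the data were seen.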
